A study of Mus musculus with 8 samples.

Results

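The genes described here are those of the MHC class II antigen presentation pathway together with Ciita, their common transcriptional activator. They were chosen by gene name and not by a cut on measured values, although earlier results of these data were known. The list held 10 genes of the 47493 in the table: the classical chains H2-Aa, H2-Ab1 and H2-Eb1, the DM chains H2-DMa, H2-DMb1 and H2-DMb2, the DO chains H2-Oa and H2-Ob, the invariant chain Cd74, and Ciita. All 10 averaged at least 1 FPKM over the 8 libraries and were tested. FPKM, the unit of the deposited levels, divides fragment numbers by transcript length and by library size, so levels of different genes can be compared.

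RNA was sequenced from endogenous CD8+ T cells of 4 female C57BL/6 mice, aged 6 to 8 weeks when the experiment began. All mice received 200000 B16F10 melanoma cells intradermally on day 0, 300 mg/kg cyclophosphamide on day 3, 2000000 Thy1.1 Pmel-1 T cells (which carry a transgenic receptor for a melanoma antigen) on day 5, 10000 IU of recombinant human IL-2 daily for 3 days from day 5, and 200 μg of the anti-CD4 antibody GK1.5 weekly from day 10, so no untreated animal stood beside them. On day 25, Thy1.1-negative CD8+ T cells were purified from inguinal lymph nodes and spleen by CD8 isolation and beads against Thy1.1. Cells with high IL-18Rα were then held on a column by a PE-labeled antibody and PE microbeads (IL-18Rα-hi-enriched, n = 4), and the cells that ran through served as the control (flow-through, n = 4). Both fractions were enriched populations from bead columns and not clones or sorted single populations, and both came from every mouse.

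MHC class II molecules are heterodimers that display peptides from endocytosed proteins to CD4 T cells. In mice they are made mainly by B cells, dendritic cells and macrophages, and resting mouse T cells are generally taken not to make them. The new dimer is held by the invariant chain, which is cut by lysosomal proteases down to a peptide called CLIP. DM then exchanges CLIP for other peptides, and DO, which is found mainly in B cells and some dendritic cells, inhibits DM. CIITA binds no DNA itself and joins the RFX, NF-Y and CREB proteins that sit on the conserved X and Y boxes of the class II promoters.

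The promoter sequences are shown because the chains that share this control differed between the fractions to unequal extents. RefSeq promoter windows (GRCm38.p6, 250 bases before to 50 after the transcript start) were found for 7 of the 10 genes, namely H2-Aa, H2-Eb1, H2-DMa, H2-DMb1, H2-DMb2, H2-Oa and H2-Ob. Windows were searched on both strands for TGATTGG, which holds the inverted CCAAT of the Y box and was chosen as search letters after these promoters had been seen. It was present in 6 of the 7 genes and in 7.82% of all 32851 windows. The shorter ATTGG, which lies within it, was in 37.4% of windows, and an X box written as CCNNGNNAC in 47.4%. The X box letters followed by ATTGG with 12 to 40 bases between them were in 1.63% of windows and in 3 of the 7 genes, H2-DMb1, H2-Oa and H2-Ob. In the following stretches, read 5′ to 3′ on the gene's strand, the capitals mark TGATTGG and, where the spaced pair was matched, the X box letters upstream of it.

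H2-Aa, chr17:34287867-34287923, minus strand: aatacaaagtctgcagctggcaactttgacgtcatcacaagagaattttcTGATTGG

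H2-Eb1, chr17:34305756-34305812, plus strand: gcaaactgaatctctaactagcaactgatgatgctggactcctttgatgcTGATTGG

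H2-DMb2, chr17:34145107-34145163, plus strand: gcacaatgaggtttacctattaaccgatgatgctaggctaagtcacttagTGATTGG

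H2-Oa, chr17:34092284-34092340, plus strand: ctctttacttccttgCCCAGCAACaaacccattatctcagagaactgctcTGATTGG

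H2-Ob, chr17:34238796-34238852, plus strand: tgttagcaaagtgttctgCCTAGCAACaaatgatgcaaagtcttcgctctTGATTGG

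TGATTGG began 50 bases before the transcript start in H2-Aa, 61 in H2-Eb1, 92 in H2-DMb2, 45 in H2-Oa and 59 in H2-Ob. Between the X box letters and the ATTGG inside TGATTGG there were 28 bases in H2-Oa and 25 in H2-Ob. The match of the spaced pair did not follow the calls: of the 3 genes with it, H2-DMb1 was called higher and H2-Oa and H2-Ob were not, and of those without it, H2-Aa and H2-Eb1 were called higher and H2-DMa and H2-DMb2 were not. The H2-DMb1 stretch is not printed because it lies within the annotated UTR of its gene. The H2-DMb2 stretch lies within the annotated span of its gene and overlaps no exon of it, and that of H2-Oa ends at the annotated start. A match of letters is a description and not a binding site, and a missing match does not mean that an X box is absent. The printed stretches of H2-Aa, H2-Eb1 and H2-DMb2 each hold letters upstream of TGATTGG that differ from CCNNGNNAC in a single base.

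The column separated the cells by its target. Il18r1, which encodes IL-18Rα, was between 22.2 and 37.2 FPKM in flow-through libraries and between 107 and 116 FPKM in the enriched libraries, with a log2 fold change of 1.85 (adjusted p = 0.000291 by limma, SE 0.15). CD8 T-cell markers were abundant in all libraries, with a summed level of 8 genes between 1529 and 2887 FPKM in flow-through libraries and between 3035 and 3316 FPKM in enriched libraries. The lowest sum was that of flow-through replicate 1, in which all 8 of these markers and all 10 genes of the class II list were at the lowest level of the fraction. Summed FPKM of whole libraries ranged only from 656715 to 711678.

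Of the 10 members, 6 were higher in the IL-18Rα-hi-enriched fraction and none passed the test in the other direction. H2-Aa, H2-Ab1 and H2-Eb1, the classical chains, rose about together, with ratios of mean FPKM of 4.16, 4.06 and 4.64. Ciita, the activator, had a ratio of 4.74, and Cd74, the invariant chain, 3.15. Among the chains that edit the peptide, only H2-DMb1 passed the test, with a ratio of 2.53. H2-DMa, H2-DMb2, H2-Oa and H2-Ob did not, with ratios between 0.742 and 1.28. The 6 genes compare with 1720 of 12166 genes called higher (14.1%), and the 0 with 1664 called lower (13.7%), by limma on log2(FPKM + 1) at an adjusted p under 0.05. The median log2 fold change was 1.44 over the 10 members and -0.02 over all genes tested. In bulk RNA, more cells that express these genes and more of their RNA per cell cannot be told apart.

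**Figure D1:**
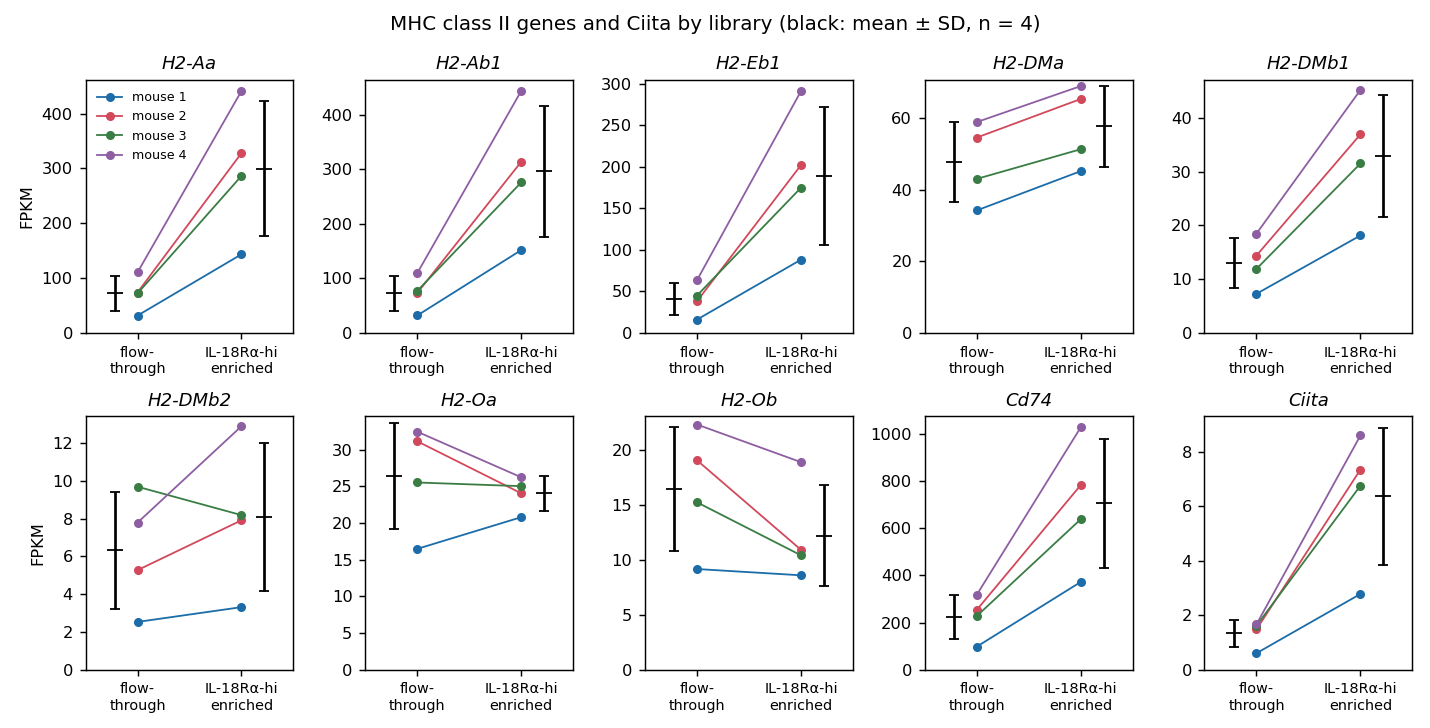
FPKM of the 10 genes in each library, with a panel per gene, lines joining the 2 fractions of a mouse, and black marks for mean ± SD of 4 libraries. H2-Aa, H2-Ab1, H2-Eb1, Cd74 and Ciita show no overlap of the fractions, H2-Ob is lower at the enriched end of every line, and mouse 1 is the lowest in every panel and both fractions.

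H2-Aa encodes the α chain of I-A (chr17:34282744-34287823 of GRCm38, minus strand, protein coding). It was measured at 31.8, 73.9, 72.2 and 110.5 FPKM in flow-through replicates 1 to 4 and at 143.5, 328.0, 286.4 and 441.2 FPKM in enriched replicates 1 to 4. The lowest enriched library lay above the highest flow-through library. The mean was 72.1 ± 32.2 FPKM (SD, n = 4) in flow-through libraries and 299.8 ± 123.0 FPKM (SD, n = 4) in the enriched fraction, with a log2 fold change of 2.06 (adjusted p = 0.00979 by limma, SE 0.43). Within mice the ratio was 4.51, 4.44, 3.97 and 3.99 in mice 1 to 4, a far narrower spread than that of the levels. With the mouse as a block the SE was 0.06.

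H2-Ab1 encodes the β chain that pairs with H2-Aa (chr17:34257689-34269419, plus strand). Its levels were close to those of H2-Aa in every library: 32.1, 73.2, 77.1 and 109.6 FPKM in flow-through libraries and 151.8, 313.5, 275.7 and 443.1 FPKM in enriched libraries. The fractions did not overlap. The mean rose from 73.0 ± 31.8 to 296.0 ± 119.9 FPKM (SD, n = 4 each), a log2 fold change of 2.03 (adjusted p = 0.00927 by limma, SE 0.41).

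The ratio of H2-Aa to H2-Ab1 within a library, which no scaling of that library can change, was 0.986 ± 0.0337 in flow-through libraries and 1.01 ± 0.0466 in the enriched fraction (SD, n = 4). The log2 difference of the ratio was 0.03 (exact two-sided permutation test, p = 0.543). Both chains of I-A thus stood near equal levels in every library, from 0.937 to 1.05.

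H2-Eb1 encodes the β chain of I-E (chr17:34305867-34316674, plus strand). C57BL/6 mice carry a defective gene for the α chain of I-E and do not display I-E on the cell surface. H2-Eb1 was at 16.2, 38.3, 45.1 and 63.5 FPKM in flow-through libraries and at 88.3, 202.0, 174.8 and 291.0 FPKM in the enriched libraries. It had the largest log2 fold change of the 10 genes, 2.21 (adjusted p = 0.00971 by limma, SE 0.46), again without overlap of the fractions. Its difference from H2-Aa and H2-Ab1 in fold change was smaller than the SE of each fold change without a mouse term. The neighboring H2-Eb2 did not reach the filter, at 0.0977 to 0.785 FPKM, and H2-Ea-ps was listed at 0 in 7 libraries and at 0.127 FPKM in enriched replicate 4.

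Cd74 (chromosome 18, protein coding) encodes the invariant chain, the chaperone of new class II dimers. It was the most abundant of the 10 genes in every library, at 97.7, 253.5, 227.4 and 317.4 FPKM in flow-through libraries and 371.9, 782.4, 637.7 and 1027 FPKM in enriched libraries. The fractions did not overlap, although enriched replicate 1 stood only a little above flow-through replicate 4. The mean was 224.0 ± 92.3 FPKM in flow-through libraries and 704.7 ± 273.8 FPKM in enriched libraries (SD, n = 4). The log2 fold change was 1.68 (adjusted p = 0.0182 by limma, SE 0.41). Among the 12166 genes tested, Cd74 went from rank 382 by mean level in the flow-through to rank 143 in the enriched fraction. The call was lost without enriched replicate 2 (log2 fold change 1.60, adjusted p = 0.0534) and without enriched replicate 4 (1.47, adjusted p = 0.0521), by limma in both cases.

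Ciita (chr16:10480059-10528418, plus strand) encodes the class II transactivator. It was the least abundant member, at 0.607, 1.48, 1.62 and 1.67 FPKM in flow-through libraries and at 2.78, 7.35, 6.75 and 8.60 FPKM in enriched libraries. Every enriched library lay above every flow-through library. The mean went from 1.34 ± 0.497 to 6.37 ± 2.51 FPKM (SD, n = 4), with a log2 fold change of 1.60 (adjusted p = 0.00704 by limma, SE 0.30). Added to every value, the pseudocount of 1 FPKM compresses the fold of so low a gene: the log2 fold change was 2.14 with a pseudocount of 0.1 and 0.82 with 5. Of the exonic bases of Ciita, 3.5% are shared with Dexi on the other strand, a gene at up to 17.5 FPKM here, and the counting did not use strand by default.

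Ciita was also set against its target H2-Ab1. The ratio of Ciita to H2-Ab1 was 0.0188 ± 0.00256 in flow-through libraries and 0.0214 ± 0.00302 in the enriched fraction (SD, n = 4), a log2 difference of 0.19 (exact two-sided permutation p = 0.257) that turned to -0.43 when 1 FPKM was added to both terms.

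H2-DMb1 encodes a β chain of DM (chr17:34153072-34160230, plus strand). It was at 7.29, 14.4, 11.9 and 18.5 FPKM in flow-through libraries and at 18.1, 36.9, 31.5 and 45.2 FPKM in enriched libraries. Only enriched replicate 1 lay within the flow-through range, just under flow-through replicate 4, while every mouse was higher in its enriched library, by 2.44 to 2.64 times. The log2 fold change was 1.27 (adjusted p = 0.0211 by limma, SE 0.32). Without flow-through replicate 3 or enriched replicate 2, 3 or 4, the limma adjusted p lay between 0.0525 and 0.0615, so the call was lost.

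H2-DMb2 encodes the second DM β chain (chr17:34143307-34151555, plus strand). It was at 2.53, 5.28, 9.70 and 7.79 FPKM in flow-through libraries and at 3.32, 7.92, 8.19 and 12.9 FPKM in enriched libraries, so the fractions overlapped widely and 3 of 4 mice were higher. The log2 fold change was 0.31 (SE 0.42 and 95% interval -0.65 to 1.27, adjusted p = 0.607 by limma). H2-DMb1 and H2-DMb2 are paralogs: 179 words of 100 bases occur in both, 11.3% of those of H2-DMb1 and 10.3% of those of H2-DMb2, so their division by the multi-read correction is uncertain. The ratio of H2-DMb1 to H2-DMb2 was 2.30 ± 0.747 in flow-through libraries and 4.37 ± 0.879 in the enriched fraction (SD, n = 4), higher in 4 of 4 mice. The log2 difference was 0.98 (exact two-sided permutation p = 0.0286, the smallest that 4 against 4 libraries can give). After adjustment over the 5 ratios tested, the permutation p was 0.0714, above the threshold. A ratio at the smallest p could pass this adjustment only if enough of the other ratios reached it too. The adjusted value therefore cannot decide about this ratio alone.

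H2-DMa encodes the α chain of DM (chr17:34119541-34139101, plus strand). It was at 34.3, 54.6, 43.1 and 59.0 FPKM in flow-through libraries and at 45.3, 65.4, 51.4 and 69.0 FPKM in enriched libraries. The ranges overlapped for most of their length, yet each mouse was a little higher in its enriched library, by 1.32, 1.20, 1.19 and 1.17 times. The log2 fold change was 0.28 (95% interval -0.17 to 0.73, limma adjusted p = 0.311). With the mouse as a block it passed the test (adjusted p = 0.0117 by limma, SE 0.06). With libraries scaled to their CD8 T-cell markers it was -0.12. In the annotation, 10.4% of the exonic bases of H2-DMa are shared with Brd2 on the other strand, a gene at up to 153 FPKM here.

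H2-Oa and H2-Ob encode the α and β chains of DO, the inhibitor of DM. H2-Oa (chr17:34092340-34095234, plus strand) was at 16.5, 31.2, 25.5 and 32.5 FPKM in flow-through libraries and at 20.8, 24.1, 25.0 and 26.2 FPKM in enriched libraries. The enriched libraries lay within the flow-through range. The log2 fold change was -0.09 (SE 0.20 and 95% interval -0.54 to 0.36, adjusted p = 0.756 by limma), and 1 of 4 mice was higher in its enriched library. The antisense gene BC051537, which shares 22.8% of the exonic bases of H2-Oa, was at no more than 0.409 FPKM.

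H2-Ob (chr17:34238903-34254414, plus strand) was at 9.18, 19.1, 15.3 and 22.3 FPKM in flow-through libraries and at 8.61, 10.9, 10.4 and 18.9 FPKM in enriched libraries. It was the only member of the 10 that was lower in the enriched library of every mouse, with ratios of 0.938, 0.573, 0.683 and 0.847, while the ranges of the fractions overlapped. The log2 fold change was -0.39 (SE 0.30 and 95% interval -1.07 to 0.28, adjusted p = 0.345 by limma). With the mouse as a block H2-Ob passed the test as lower (adjusted p = 0.0345 by limma, SE 0.12).

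The peptide editors can also be compared within a library. The ratio of H2-DMa to H2-Oa was 1.83 ± 0.172 in flow-through libraries and 2.40 ± 0.330 in the enriched fraction (SD, n = 4), higher in 4 of 4 mice. The log2 difference of 0.38 had an exact two-sided permutation p of 0.0571 (0.0952 after adjustment over the 5 ratios), so it did not pass the threshold. With the mouse as a block over all genes, 7 members were called higher and 1 lower, beside 22.2% and 22.7% of all genes.

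**Figure D2:**
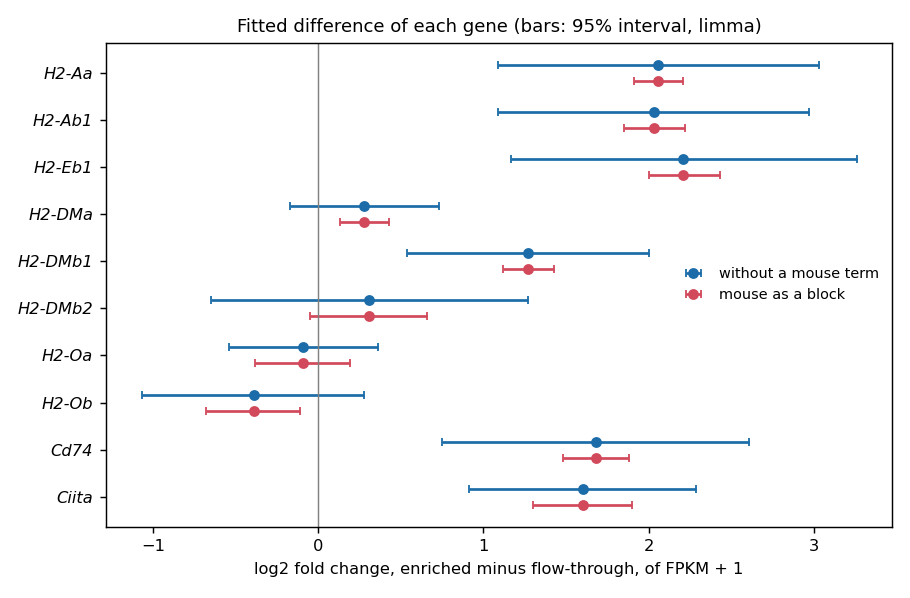
Log2 fold change of FPKM + 1, enriched minus flow-through, of each of the 10 genes, as points with 95% intervals from limma without a mouse term (blue) and with the mouse as a block (red). The intervals of H2-Aa, H2-Ab1, H2-Eb1, H2-DMb1, Cd74 and Ciita lie above 0 in both fits, and those of H2-DMa and H2-Ob leave 0 with the block alone.

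The levels of all 10 genes were ordered by mouse as well as by fraction. In the flow-through, all 10 were lowest in replicate 1, as were 43.4% of all genes tested, and 9 were highest in replicate 4 (26.5% of all genes), with H2-DMb2 as the exception. In the enriched fraction, all 10 were lowest in replicate 1 (37.6% of all genes) and highest in replicate 4 (27.7%). All 10 were lowest in mouse 1 in both fractions, which held for 25.9% of all genes. The 5 members whose fractions did not overlap, all of them higher, compare with 16.4% of all genes, and the 0 that lay wholly lower with 15.9%. The 7 members higher in every mouse compare with 29.2% of all genes, and the 1 lower in every mouse, H2-Ob, with 30.6%. Without mouse 1, 6 members were called higher and 0 lower, the same counts as with all libraries. Over all 12166 genes that fit called 1790 higher and 1557 lower.

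The order of levels also differed between the fractions. In the flow-through the order of mean FPKM ran from Cd74 over H2-Ab1, H2-Aa, H2-DMa, H2-Eb1, H2-Oa, H2-Ob, H2-DMb1 and H2-DMb2 down to Ciita. Neighbors in that order from H2-Ab1 down to H2-Oa, and H2-Ob and H2-DMb1, differed by less than the larger of their SDs between libraries. In the enriched fraction H2-Eb1 stood above H2-DMa, at 189.0 ± 83.5 against 57.8 ± 11.3 FPKM, and H2-DMb1 stood above H2-Oa and H2-Ob, at 32.9 ± 11.4 against 24.0 ± 2.33 and 12.2 ± 4.58 FPKM (SD, n = 4). There, H2-Aa and H2-Ab1, H2-Ab1 and H2-Eb1, H2-DMb1 and H2-Oa, H2-Ob and H2-DMb2, and H2-DMb2 and Ciita differed by less than the larger SD. The SD ignores that the genes were measured in the same libraries. H2-Ab1 stood above H2-Eb1, H2-Ob above H2-DMb2 and H2-DMb2 above Ciita in every enriched library. In every flow-through library H2-Ob stood above H2-DMb1.

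The profile of H2-Aa, H2-Ab1, H2-Eb1 and Cd74 was followed by the other members to different degrees. Over the 8 libraries, which share the fraction and the mouse, the Pearson correlation of log2(FPKM + 1) with the mean of these 4 genes was 0.991 for H2-DMb1 and 0.978 for Ciita, 0.815 for H2-DMa, 0.68 for H2-DMb2, 0.314 for H2-Oa and 0.082 for H2-Ob. After the mean of each fraction was subtracted, these correlations lay between 0.875 and 0.98, with 0.925 for H2-Ob. Within a fraction, then, all 6 genes varied between mice much as the classical chains did, and they parted from each other between the fractions. The likeness within fractions was not particular to class II genes. Among cell-type markers it was 0.96 for Foxp3, 0.95 for Ccr9 and 0.92 for Ly6d, but 0.05 for Tcf4 and -0.46 for Zbtb46. The share of all genes in that range is not given.

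Among 9049 other genes averaging at least 5 FPKM, the 10 most like this profile over the 8 libraries were Plbd1, Naaa, Pear1, Klrb1c, Foxp3, Ctla4, Nfkb1, Cd83, Il2ra and Icosl, with correlations between 0.987 and 0.993. Plbd1, the closest, was between 5.07 and 16.7 FPKM in flow-through libraries and between 26.7 and 72.1 FPKM in enriched libraries. After the fraction means were subtracted, the closest were Taf1a, Lmbr1l, Tab2, Ikzf2, Pear1, Socs3, Ccnd1, Ifi35, Hspb11 and Slc41a1, with correlations between 0.983 and 0.997. Pear1 was the only gene in both groups of 10.

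Of the 7 genes of the promoter-binding complex that CIITA joins, 2 rose and 0 fell, with a median log2 fold change of 0.02 beside -0.02 over all genes. Nfyb, a subunit of NF-Y, was between 26.3 and 29.7 FPKM in flow-through libraries and between 32.8 and 38.0 FPKM in enriched libraries (log2 fold change 0.34, limma adjusted p = 0.0125). Creb1, which binds the X2 element, had a log2 fold change of 0.36 (limma adjusted p = 0.0248). With libraries scaled to their CD8 T-cell markers both were near 0, at -0.05 and -0.03. The call of Creb1 was lost without flow-through replicate 4 or enriched replicate 3 or 4 (limma adjusted p between 0.0538 and 0.0641). Rfx5, which encodes a DNA-binding subunit of RFX, had a log2 fold change of -0.15 (limma adjusted p = 0.401), and its flow-through range of 9.26 to 13.4 FPKM covered most of the enriched range of 8.43 to 10.9 FPKM.

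Factors that act on the Ciita gene were more unequal. Of 5 genes tested in this list, 2 rose and 0 fell, with a median log2 fold change of 0.70. Irf4, a lymphoid interferon regulatory factor, was between 4.74 and 10.1 FPKM in flow-through libraries and between 14.8 and 19.2 FPKM in enriched libraries (log2 fold change 1.10, limma adjusted p = 0.00633). Prdm1, which encodes BLIMP-1, a repressor of Ciita in plasma cells, also rose, from a range of 1.37 to 3.04 FPKM to 5.52 to 7.06 FPKM (log2 fold change 1.18, limma adjusted p = 0.00323). Spi1, which encodes the myeloid and B-cell factor PU.1, had a log2 fold change of 0.70 that passed the test only with the mouse as a block (limma adjusted p = 0.187 without and 0.000605 with it).

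Interferon-γ, the classical inducer of Ciita, and its signaling genes gave 2 that rose and 0 that fell of 6, with a median of 0.22. Ifng itself was at 6.03 to 12.3 FPKM in flow-through libraries and 20.5 to 30.1 FPKM in enriched libraries, without overlap (log2 fold change 1.35, limma adjusted p = 0.00347). Jak2, the kinase of the second receptor chain, had a log2 fold change of 0.31 (limma adjusted p = 0.0188), which was -0.08 with T-cell scaling. Its call was lost without flow-through replicate 3 or enriched replicate 2, 3 or 4 (limma adjusted p between 0.0519 and 0.0584). The receptor chain Ifngr2 (-0.35) did not pass the test, and neither did Socs1 (0.40), a feedback inhibitor. With the mouse as a block Ifngr2 passed as lower (limma adjusted p = 0.0489).

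Lysosomal proteases and other genes of class II turnover gave 6 that rose and 1 that fell of 9, with a median log2 fold change of 0.61. The risers were Ctsb and Ctsd, which encode cathepsins B and D (0.51 each), Lgmn, which encodes an asparaginyl endopeptidase (0.96), Ifi30, which encodes the thiol reductase GILT (0.63), March1, a ubiquitin ligase that removes class II from the surface (0.95), and Cd83, which opposes March1 (1.22). Ctsl, which encodes cathepsin L, fell, from a range of 8.35 to 12.3 FPKM to 3.49 to 5.81 FPKM (log2 fold change -0.78, limma adjusted p = 0.0119). Ctss, the main protease of invariant chain breakdown in B cells and dendritic cells, had a log2 fold change of 0.61 and did not pass the test (limma adjusted p = 0.0952, and 0.00874 with the mouse as a block). March8, a paralog of March1, was lower in 4 of 4 mice with a log2 fold change of -0.85 that did not pass the test (limma adjusted p = 0.158, and 0.00109 with the mouse as a block). With the block 7 of the 9 were called higher and 2 lower, and with T-cell scaling only 1 was called higher and 1 lower. Leaving out single libraries ended the call of Lgmn (flow-through replicate 3, enriched replicates 2, 3 and 4, limma adjusted p between 0.0669 and 0.0959) and of March1 (all flow-through replicates but 4, enriched replicates 2, 3 and 4, limma adjusted p between 0.0526 and 0.12).

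Costimulatory ligands of antigen-presenting cells gave 2 that rose of 5, Cd80 (0.95, limma adjusted p = 0.0122) and Icosl (1.12, limma adjusted p = 0.0156). Cd86 had a log2 fold change of 0.69 that did not pass the test (limma adjusted p = 0.0601, and 0.00362 with the mouse as a block) although its fractions did not overlap. Of 5 tested genes that neighbor the class II genes on the chromosome but serve class I presentation or transcription, 1 rose, Psmb8, an immunoproteasome subunit, with a log2 fold change of 0.46 (limma adjusted p = 0.0427). Psmb9 (0.40) and Tap1 (0.25) did not pass, and the median of the 5 was 0.25. The call of Psmb8 was lost without flow-through replicate 3 or any single enriched replicate (limma adjusted p between 0.0786 and 0.1), as well as with no filter (limma adjusted p = 0.0781), quantile normalization (0.32, limma adjusted p = 0.126) and T-cell scaling (0.06, limma adjusted p = 0.758). Psmb9 passed without flow-through replicate 1 (0.23, limma adjusted p = 0.0484) and with the mouse as a block (limma adjusted p = 0.0384).

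Markers of the cells that make class II were present in both fractions and moved to different extents. Of 10 markers of conventional dendritic cells, 6 rose and 1 fell (7 and 1 with the mouse as a block), with a median log2 fold change of 1.26. Xcr1, a chemokine receptor of cross-presenting dendritic cells, was at 0.208 to 0.978 FPKM in flow-through libraries and 3.02 to 6.38 FPKM in enriched libraries (log2 fold change 1.76, limma adjusted p = 0.00167). Batf3, a factor of the same cells that activated T cells also express, had a log2 fold change of 1.80, Itgax (CD11c) 1.65, Clec9a 1.63, Cd209a 1.35 and Flt3 1.18. The call of Flt3 was lost without flow-through replicate 1 or 3 or enriched replicate 2, 3 or 4 (limma adjusted p between 0.0563 and 0.0899). Ccr7, which naive T cells express as well, fell, with a log2 fold change of -1.27 (limma adjusted p = 0.00402). Zbtb46 did not pass the test, at -0.23 (limma adjusted p = 0.413), and was higher in 2 of 4 mice. Clec10a (0.53, limma adjusted p = 0.183) and Sirpa (0.79, limma adjusted p = 0.146) did not pass either. Sirpa passed as higher with the mouse as a block (limma adjusted p = 0.000517). The dendritic list summed to 80.6 to 155.8 FPKM in flow-through libraries and 89.6 to 148.9 FPKM in enriched libraries and Ccr7 alone made up most of the sum in each flow-through library.

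Of 6 B-cell markers tested out of 9, 1 rose and 0 fell, with a median log2 fold change of -0.01. The riser was Cd22 (0.98, limma adjusted p = 0.00759). Cd79a, a chain of the B-cell receptor complex, was at 5.86, 14.1, 18.0 and 18.9 FPKM in flow-through libraries and 5.38, 17.3, 15.8 and 25.5 FPKM in enriched libraries, with a log2 fold change of 0.10 (adjusted p = 0.890 by limma, SE 0.48). Ms4a1 (-0.12), which encodes CD20, also did not pass the test. With the mouse as a block 2 were called higher, Cd22 and Cd79b (0.33, limma adjusted p = 0.0499), and 1 lower, Cr2 (-0.49, limma adjusted p = 0.0217), which was lower in 4 of 4 mice. The B-cell list summed to 26.2 to 68.4 FPKM in flow-through libraries and 41.2 to 84.1 FPKM in enriched libraries.

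As a within-library measure, the ratio of H2-Ab1 to Cd79a was 5.48, 5.19, 4.28 and 5.80 in flow-through libraries and reached 28.2, 18.2, 17.4 and 17.4 in enriched libraries. The ratio was higher in 4 of 4 mice without overlap, with a log2 difference of 1.95 (exact two-sided permutation p = 0.0286, again the lowest reachable). After adjustment over the 5 ratios the permutation p was 0.0714, above the threshold. Even with full separation, a ratio could pass only if enough of the other ratios were separated too, so the adjusted value cannot decide here. Within fractions, Cd79a followed the profile of the classical chains and Cd74 more closely than any other B-cell marker did. After the fraction means were subtracted, the other B-cell markers had correlations with this profile from 0.15 for Ebf1 to 0.93 for Cd79b. For Cd79a the correlation was 0.57 over the 8 libraries and 0.97 after the fraction means were subtracted. These values were 0.97 and 0.87 for Itgax, 0.96 and 0.94 for Xcr1, and -0.56 and -0.46 for Zbtb46.

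**Figure D3:**
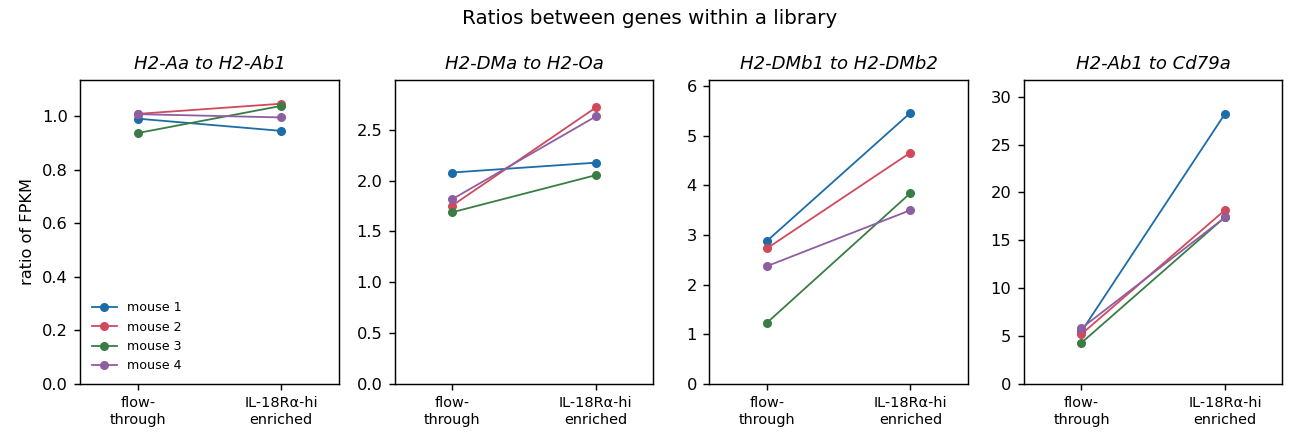
Ratios of the FPKM of H2-Aa to H2-Ab1, H2-DMa to H2-Oa, H2-DMb1 to H2-DMb2 and H2-Ab1 to Cd79a in the same library, each on its own axis from 0, with lines joining the 2 fractions of a mouse. H2-Aa to H2-Ab1 stays between 0.937 and 1.05, whereas H2-Ab1 to Cd79a is at 4.28 to 5.80 in flow-through libraries and at 17.4 to 28.2 in the enriched fraction.

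Monocyte and macrophage markers gave 5 that rose and 0 that fell of 9 tested, with a median of 0.98, and a summed level of 114.7 to 390.3 FPKM in flow-through libraries and 376.0 to 881.4 FPKM in enriched libraries, most of it from Lyz2 (log2 fold change 1.41, limma adjusted p = 0.0342). Leaving out flow-through replicate 1 or enriched replicate 2 or 3 gave a count of 2, leaving out flow-through replicate 3 or 4 gave 3, leaving out enriched replicate 4 gave 1, and the fit with the mouse as a block gave 8. Lyz2 itself was not called without flow-through replicate 1, 3 or 4 or enriched replicate 2 or 4 (limma adjusted p between 0.0566 and 0.0915). Plasmacytoid dendritic cell markers gave 1 that rose, Siglech (0.96), and 1 that fell, Ccr9 (-1.68), of 7 tested, with a median of 0.40, and 4 rose with the mouse as a block. None of 5 plasma cell markers passed the test, with a median of 0.70, and all 5 passed as higher with the mouse as a block.

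CD8 T-cell markers gave 1 that rose of 8, Thy1 (0.75), with a median of 0.40, and 2 with the mouse as a block. NK-cell markers gave 4 that rose of 6 (median 1.20, and 5 with the block) and CD4 T-cell markers 3 of 3 (median 1.78), where Foxp3 was at 1.12 to 4.40 FPKM in flow-through libraries and 5.86 to 19.0 FPKM in enriched libraries. No marker of these lists was at 0 in every library. The paper reports Ncr1 and Klrb1c of the NK-cell list and Cd40lg of the CD4 list as upregulated in the enriched CD8 T cells. It describes them as natural killer receptors and an innate-like T-cell marker that T-cell activation can also raise. These lists therefore do not mark other cell types alone. With libraries scaled to the CD8 T-cell markers, the median of all genes moved from -0.02 to -0.38, and 505 genes (4.15%) were called higher and 1590 (13.1%) lower. On that scale, 6 members were still called higher and 1, H2-Ob, lower, and the log2 fold change of H2-Aa was 1.66. The part of other cell types in the class II differences was not tested.

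**Figure D4:**
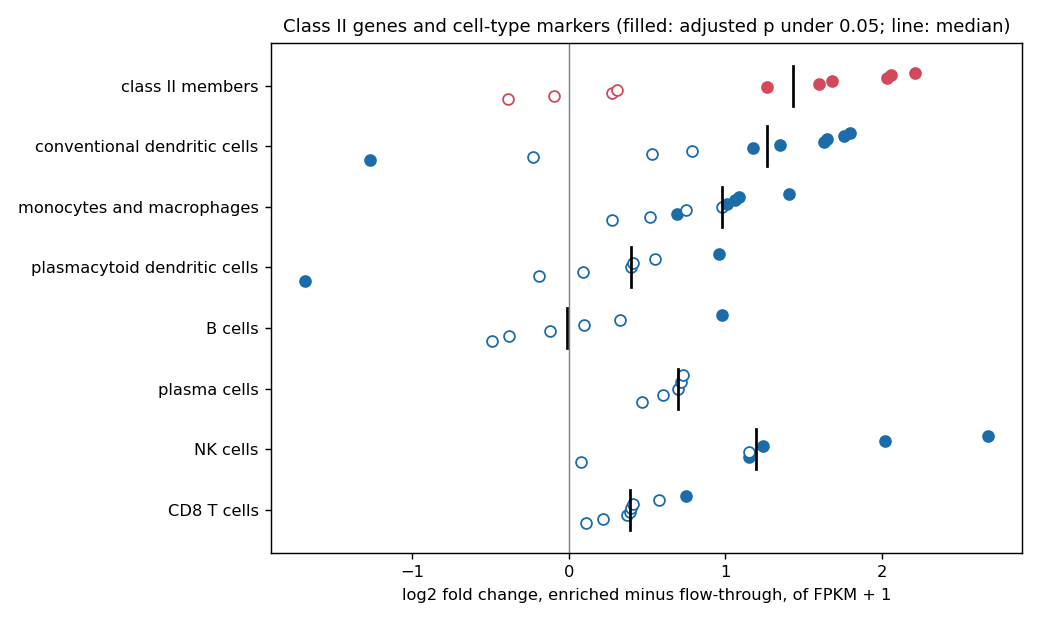
Log2 fold change of FPKM + 1, enriched minus flow-through, of the 10 class II genes (red) and of marker genes of 7 cell types (blue), with a point per gene, filled where the limma adjusted p was under 0.05, and a line at the median of each list. The median is 1.44 for the class II genes, 1.26 for conventional dendritic cells and 1.20 for NK cells. It is 0.98 for monocytes and macrophages and -0.01 for B cells. The 3 CD4 T-cell markers, with a median of 1.78, are not drawn.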

How the data were processed

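Stranded poly(A) libraries were sequenced as paired ends. Per the labels and the study's methods, the authors mapped quality-filtered reads to mm10 with TopHat and estimated gene levels as FPKM with Cufflinks 2.1.1, with multi-read and fragment-bias correction. Other options were at their defaults, which ignore strand, and the annotation release was not stated. The deposited FPKM are estimates and carry no exact depth, so no count model or counting interval was used.

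Groups and numbers came from the labels. Fractions were compared by limma (3.58.1, R 4.3.3) after adding 1 FPKM and taking log2, with a variance trend and no block, for genes averaging at least 1 FPKM. P-values were adjusted by Benjamini-Hochberg over all 12166 genes, with a threshold of 0.05. Fold changes on this scale understate low genes. The script was tested on simulated data. P-values measure the spread between libraries of different mice.

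Per the labels, each of the 4 mice gave both fractions, and same-numbered libraries were taken to be from the same mouse, which the labels do not state outright. Their deviations from the fraction means correlated at 0.66, 0.589, 0.308 and 0.471, and those of libraries with different numbers at -0.6 to 0.412. Fits with the mouse as a block are given where they changed the call of a named gene or the count of a list. T-cell scaling divided each library by the geometric mean of 8 CD8 T-cell markers. Ratios of 2 genes were compared by exact two-sided permutation, adjusted over 5 ratios. Correlations are descriptions.

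Locations and overlaps are from GENCODE M21 (GRCm38, the same build as mm10), and promoters from RefSeq. All members are reported. In each pathway list, genes past the threshold and the 3 with the largest change are named. A few list genes are left unnamed but remain in the counts. Members, lists and tests were chosen with earlier results of these data known. Alternatives were other pseudocounts, filters and scalings, no variance trend, the block, and leaving out libraries. The fit without mouse 1 and the search for TGATTGG were added after seeing the data.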

Additional observations from a re-analysis of the deposited data

Results flagged for a closer look

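Of 128 sets of 4 libraries checked for a library far from the other 3, 5 were marked by Dixon's test, where chance gives about 1 in 20. Irf4 was at 14.8 FPKM in enriched replicate 1 and between 19.1 and 19.2 FPKM in the others. Ctsl was at 12.3 FPKM in flow-through replicate 1 beside 8.35 to 8.75 FPKM, and at 3.49 FPKM in enriched replicate 3 beside 5.57 to 5.81 FPKM. Cd209a was at 18.4 FPKM in enriched replicate 4 beside 8.33 to 9.98 FPKM. The ratio of H2-Ab1 to Cd79a was 28.2 in enriched replicate 1 beside 17.4 to 18.2. None of the 10 class II genes was marked in either fraction by its own level.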

How the results depend on the processing

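The count of class II genes called higher stayed within 1.5 times of 6 under all alternatives run, and the count called lower was 1 instead of 0 with T-cell scaling and with the replicate block, which is the paired fit. Over all genes, 505 were called higher with T-cell scaling and 2705 with the replicate block, which called 2763 lower. Leaving out 1 library gave 1124 to 1802 higher and 940 to 1781 lower. Of 179 log2 fold changes of members under alternatives, 165 kept direction and call, 6 lost the call, 3 gained it and 5 reversed. The reversals were H2-DMa (-0.12) and H2-DMb2 (-0.02) with T-cell scaling, H2-DMb2 without flow-through replicate 1 (-0.0024), and H2-Oa without flow-through replicate 2 (0.00022) or 4 (0.02), where leaving out 1 library at a time gave -0.0024 to 0.63 for H2-DMb2 and -0.29 to 0.02 for H2-Oa. Ciita could not be tested at a mean of at least 5 FPKM. T-cell scaling also reversed Nfyb (-0.05), Creb1 (-0.03), Jak2 (-0.08), Psmb9 (-0.0039), Tap1 (-0.16), Cd79a (-0.26) and Cd79b (-0.06). Ms4a1 was at 0.14 and 0.18 without flow-through replicate 3 or enriched replicate 1 (range -0.41 to 0.18), and Cd79a at -0.24 and -0.17 without flow-through replicate 1 or enriched replicate 4 (range -0.24 to 0.52). The log2 difference of the ratio of Ciita to H2-Ab1 was -0.43 with FPKM + 1. Apart from the scaling and library effects built into these alternatives, the cause was not tested. For the ratios, leaving out 1 library leaves 0.0571 as the smallest exact p, and the sign-flip test within mice (the replicate block) gave 0.125 at best, so neither can pass the threshold.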
